A study of Mus musculus with 3 samples.

Results

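The transcripts described here are those of 4 genes of 18545 in the matrix: Gad1 and Gad2, the glutamate decarboxylases that make GABA from glutamate, Slc32a1, the vesicular carrier that loads both GABA and glycine into synaptic vesicles, and Slc6a9, a plasma membrane carrier that takes up glycine. They were listed by name and followed over the authors' 21 cell clusters in retinas of C57BL/6J mice aged 8 weeks. The 3 groups, with 1 droplet library each, were wild-type mice (WT), rd10 mice given vehicle (rd10-vehicle), and rd10 mice whose chow held TMB, which is tamsulosin, metoprolol and bromocriptine (rd10-TMB). The labels title the WT library non-treated but give its agent as vehicle. It was taken as an untreated control on the same base chow as the rd10 groups. All mice were kept in the dark. The rd10 allele is a single-base change of Pde6b, which encodes a phosphodiesterase subunit of rods, and these mice lose their rods first. Tag counts cannot show that change. The labels describe pools of 1 retina each from 4 mice, whereas the study's methods give fewer rd10 mice. Both rd10 pools were female and the WT pool held both sexes, so sex and genotype cannot be told apart between WT and rd10.

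In the inner retina, amacrine cells are the main inhibitory interneurons. They fall into a GABAergic kind, which makes GABA with the glutamate decarboxylases, and a glycinergic kind, which imports glycine through Slc6a9. Both kinds fill their vesicles through Slc32a1, so that carrier marks inhibitory neurons of either kind. Horizontal cells and some ganglion-layer cells can also use GABA, and the glycine carrier is known in non-neuronal cells as well.

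Each library gave 1 sum of unique molecular identifiers (UMIs, 1 per captured transcript) for each cluster and gene. A level is given in CPM, the gene's UMIs scaled to 1000000 UMIs of the cluster and library. The assay tags transcript ends, so a transcript gives 1 tag whatever its length, and levels of different genes are compared on that scale. Replicates were lacking, since each group was 1 library, and differences between groups have no test. Ranges in parentheses after a level, share or ratio are exact 95% intervals. They cover counting error only and say nothing of the spread between mice.

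The WT library held 4478 cells with a median of 3509.5 UMIs, that of rd10-vehicle 5952 cells (4811.5 UMIs) and that of rd10-TMB 4812 cells (4772.5 UMIs). Between 7 and 10 cell barcodes were shared by any pair of libraries. Clusters 5 and 9 were amacrine-like, with 10 and 7 of 11 listed amacrine markers at least 2-fold above the other cells. Cluster 10 carried 3 amacrine markers beside 4 ON cone bipolar, 3 OFF cone bipolar and 3 rod bipolar markers and was left without a name. Cluster 5 held 461 WT, 43 rd10-vehicle and 35 rd10-TMB cells, cluster 9 held 295, 62 and 48, and cluster 10 held 239, 107 and 123. Together these made up 22.2% of the WT library, 3.56% of rd10-vehicle and 4.28% of rd10-TMB. The clusters were made from the same cells and genes, so that a gene is higher in 1 cluster than in the rest is a description and no test.

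All 4 genes lie on the plus strand of mm10, with GENCODE positions. Gad1 runs from 70553072 to 70602014 on chromosome 2, Gad2 from 22622205 to 22693874 and Slc32a1 from 158610767 to 158615748 on the same chromosome, and Slc6a9 from 117834506 to 117875198 on chromosome 4. Gad1 and Slc32a1 each overlap an antisense transcript, and Slc6a9 overlaps Ccdc24 and B4galt2 on the opposite strand. The lncRNA Gm14204 starts 43 bases before Slc32a1 and is read the other way. The stretches ahead of the start sites of Gad1, Gad2 and Slc32a1 are shown because these genes were seen in overlapping cells, and capitals mark each match to CANNTG, the E-box bound by basic helix-loop-helix factors, many of which act in amacrine development. They are RefSeq promoter windows of GRCm38.p6, plus strand, 5′ to 3′, each ended before the first annotated exon base of its gene. The Gad1 window at chr2:70561879-70562041 lies inside the longer GENCODE gene model, the Gad2 window is chr2:22622077-22622204 and the Slc32a1 window is chr2:158610508-158610757.
Gad1: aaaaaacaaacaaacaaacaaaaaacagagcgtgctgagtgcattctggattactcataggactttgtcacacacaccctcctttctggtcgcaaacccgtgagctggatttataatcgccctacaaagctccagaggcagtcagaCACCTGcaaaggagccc
Gad2: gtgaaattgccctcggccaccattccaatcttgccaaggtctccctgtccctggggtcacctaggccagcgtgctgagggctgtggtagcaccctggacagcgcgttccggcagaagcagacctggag
Slc32a1: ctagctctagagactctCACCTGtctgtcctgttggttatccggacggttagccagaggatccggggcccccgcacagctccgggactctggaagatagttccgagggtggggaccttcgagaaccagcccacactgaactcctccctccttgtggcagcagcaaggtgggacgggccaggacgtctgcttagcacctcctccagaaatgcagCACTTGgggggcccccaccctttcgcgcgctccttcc
The Gad1 window of 163 bases held 1 match, the Gad2 window of 128 bases none and the Slc32a1 window of 250 bases 2, on a motif that reads the same on both strands. Windows of those lengths held at least 1 match at 52.1%, 43.9% and 66.2% of 32851 starts, so a match is common. The motif GCCNNNGGC, to which factors of the Tfap2 family bind and which also reads the same on both strands, was found once in the Gad2 window and not in the other two, and 8.23%, 6.05% and 13.7% of windows of the lengths used for Gad1, Gad2 and Slc32a1 held it. A match in these letters is no evidence of binding.

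Across WT clusters the GABA enzymes and the glycine carrier were read mostly from different clusters, while the vesicular carrier was read from all 3. In cluster 5, Gad1 stood at 856 CPM (817 to 896), Gad2 at 459 CPM (430 to 489) and Slc32a1 at 429 CPM (401 to 458), and Slc6a9 at 24.7 CPM (18.5 to 32.4). In cluster 9 the order turned: Slc6a9 stood at 679 CPM (628 to 732) and Slc32a1 at 327 CPM (292 to 365), Gad2 at 77.2 CPM (60.7 to 96.8) and Gad1 at 45.3 CPM (32.9 to 60.8). In cluster 10, Slc6a9 stood at 548 CPM (508 to 589) and Slc32a1 at 167 CPM (145 to 190), and Gad1 and Gad2 at 16.7 and 12.9 CPM. Within WT cluster 5 the levels of Gad2 and Slc32a1 had overlapping intervals, as did Gad1 and Gad2 in cluster 10, and the intervals of Gad2 and Gad1 in cluster 9 just met. The other neighbours in these orders did not overlap.

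**Figure D1:**
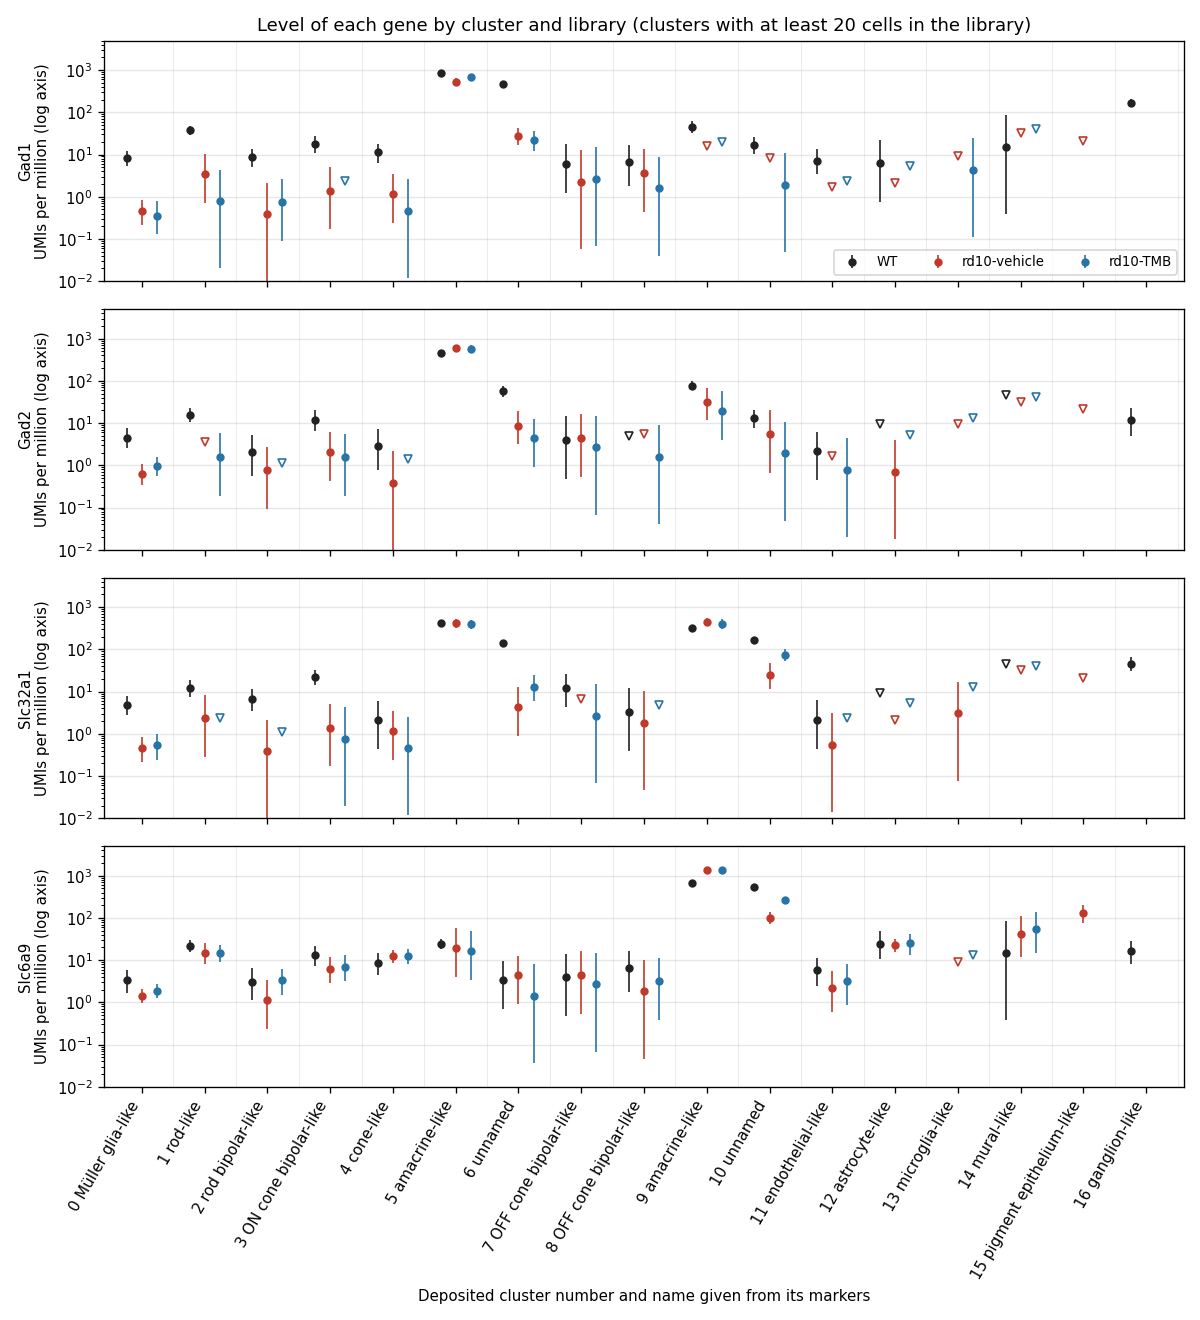
Level of each gene in CPM (log axis) by cluster and library, with exact 95% counting intervals as bars; open triangles mark the limit of 3 counts where no UMI was seen, and clusters with fewer than 20 cells in a library are not drawn. In WT, Gad1 and Gad2 peak in cluster 5 and Slc6a9 in clusters 9 and 10, and Slc32a1 stands at 429 CPM in cluster 5 and 327 CPM in cluster 9. In rd10-vehicle, Slc6a9 stands lower in cluster 10 (102 CPM) than in cluster 15 (129 CPM).

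Clusters 5, 9 and 10 together held 72.8% of WT Gad1 UMIs, 89.2% of Gad2, 82.8% of Slc32a1 and 91.6% of Slc6a9. In rd10-vehicle these shares were 65.3%, 77.0%, 86.6% and 58.5%, and in rd10-TMB 81.5%, 80.6%, 87.4% and 70.8%. The share of Slc6a9 UMIs outside these clusters was thus larger in both rd10 libraries than in WT. Over the whole library, Gad1 gave 2563 (WT), 121 (rd10-vehicle) and 151 (rd10-TMB) UMIs, Gad2 1185, 126 and 134, Slc32a1 1738, 179 and 198, and Slc6a9 1562, 499 and 490. In such sums fewer cells of a type and less RNA per cell cannot be told apart, and the share of cells in clusters 5, 9 and 10 moved the same way. The following levels are therefore given within a cluster. Both comparisons with WT use the same WT library.

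In cluster 5 the 2 GABA enzymes moved apart between the libraries, and the vesicular carrier, in summed UMIs, differed by less than counting error. Gad1, which makes most of the cell's GABA, stood at 856 CPM in WT (1800 UMIs), 523 CPM (414 to 652) in rd10-vehicle (79 UMIs) and 669 CPM (556 to 799) in rd10-TMB (122 UMIs). Both rd10 libraries lay below WT and overlapped each other. The log2 ratio for Gad1 was -0.69 (-1.05 to -0.38) for rd10-vehicle over WT, -0.34 (-0.63 to -0.09) for rd10-TMB over WT and 0.35 (-0.07 to 0.78) for rd10-TMB over rd10-vehicle.

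Gad2, the membrane-bound isoform found at synaptic terminals, stood at 459 CPM in WT (965 UMIs), 589 CPM (473 to 725) in rd10-vehicle (89 UMIs) and 570 CPM (466 to 691) in rd10-TMB (104 UMIs). Here WT was the lowest, by little. The ratio was 0.38 (0.03 to 0.68) and 0.33 (0.01 to 0.61) over WT on the log2 scale and -0.05 (-0.47 to 0.38) between the rd10 libraries. The number of Gad1 UMIs per Gad2 UMI in cluster 5 was 1.87 (1.72 to 2.02) in WT, 0.888 (0.647 to 1.22) in rd10-vehicle and 1.17 (0.896 to 1.54) in rd10-TMB. The WT ratio lay above both rd10 intervals, which overlapped each other. In cluster 5 cells without a UMI of the amacrine gene Tfap2b, Gad1 and Gad2 gave 558 and 424 UMIs in WT. They gave 68 and 87 in rd10-vehicle and 113 and 98 in rd10-TMB, so that rd10-TMB lay closer to WT there.

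Slc32a1 in cluster 5 stood at 429 CPM in WT (902 UMIs), 417 CPM (321 to 534) in rd10-vehicle (63 UMIs) and 395 CPM (309 to 497) in rd10-TMB (72 UMIs). Its log2 ratios were -0.02 (-0.43 to 0.33), -0.10 (-0.49 to 0.23) and -0.08 (-0.59 to 0.43), in the order of comparisons used for Gad1, so these counts leave room for a difference of about that width in either direction. As the mean over cells the ratios over WT were 0.49 and 0.43, and with cells thinned to 1000 UMIs that of rd10-vehicle was 0.44, each of the other sign and outside the interval given. Slc6a9 gave 52, 3 and 3 UMIs in WT, rd10-vehicle and rd10-TMB, too few to compare. None of the members differed by 2-fold in cluster 5, a limit that 12.5% of 6898 genes with at least 50 UMIs passed in either direction for rd10-vehicle over WT and 10.1% of 6942 for rd10-TMB over WT.

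The make-up of cluster 5 also moved between libraries, and its part in these ratios was not tested beyond the following. Vip, Tac1 and Npy are neuropeptide genes of particular GABAergic amacrine cells. Vip stood at 136 CPM in WT and gave 0 UMIs in both rd10 libraries, and Tac1 stood at 206, 92.7 and 16.5 CPM. Npy stood at 196, 245 and 11 CPM, with rd10-vehicle within counting error of WT and rd10-TMB below both. Without every cell that held a UMI of one of these genes, a choice made after the values were seen, the Gad1 log2 ratios over WT were -0.78 and -0.56 and those of Gad2 0.44 and 0.48. Of the defining amacrine markers, Pax6 stood at 858, 1013 and 1069 CPM in cluster 5 and Meis2 at 927, 1086 and 1053 CPM, while Tfap2b stood at 793, 113 and 21.9 CPM. Cells with a Tfap2b UMI made up 51.6%, 6.98% and 8.57% of the cluster. The cells without one were set apart after the values were seen. In them Gad1 stood at 719 CPM (661 to 782), 497 CPM (386 to 630) and 715 CPM (589 to 860). WT and rd10-TMB were level there, and rd10-vehicle lay below WT. Gad2 there stood at 547 CPM (496 to 601), 635 CPM (509 to 784) and 620 CPM (504 to 756), with overlapping intervals. Calb2 stood at 210 CPM (WT), 0 (rd10-vehicle) and 384 CPM (rd10-TMB). The rd10 libraries thus differed from WT in opposite directions. Prdm13, at 6.66 CPM in WT and 0 UMIs in both rd10 libraries, was too low to compare.

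The 2 decarboxylases were often read from the same cells. Of WT cluster 5 cells, 46.0% had UMIs of both Gad1 and Gad2, 31.9% of Gad1 alone, 6.51% of Gad2 alone and 15.6% of neither. In rd10-vehicle these shares were 51.2%, 16.3%, 11.6% and 20.9%, and in rd10-TMB 57.1%, 5.71%, 2.86% and 34.3%. Cells with both were the deepest in all 3 libraries, at a median of 7394 UMIs in WT against 2023 for cells with Gad1 alone and 1597.5 for cells with neither, so a missing UMI often went with few UMIs in the cell. The most Gad1 UMIs held by any cell of cluster 5 were 40 (WT), 7 (rd10-vehicle) and 19 (rd10-TMB).

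**Figure D2:**
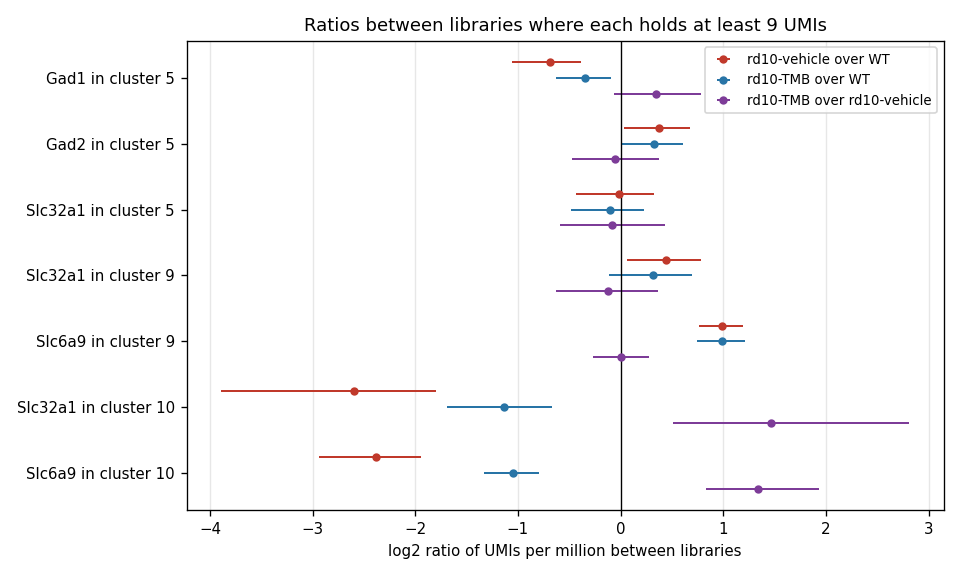
Log2 ratio of the level of each gene between libraries in clusters 5, 9 and 10, with exact 95% counting intervals as bars and a line at no difference. Slc6a9 lies near 1 above WT in cluster 9 (0.98 and 0.99) and below WT in cluster 10 (-2.39 and -1.05), and Slc32a1 in cluster 5 crosses the line in every comparison.

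In cluster 9 the glycine carrier was higher in both rd10 libraries than in WT, by just under 2-fold. Slc6a9 stood at 679 CPM in WT (659 UMIs), 1338 CPM (1178 to 1514) in rd10-vehicle (252 UMIs) and 1340 CPM (1163 to 1536) in rd10-TMB (206 UMIs). The rd10 libraries lay close together and clear of WT. Its log2 ratio was 0.98 (0.76 to 1.19) for rd10-vehicle over WT, 0.99 (0.75 to 1.21) for rd10-TMB over WT and 0.00 (-0.27 to 0.27) between the rd10 libraries.

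Slc32a1 in cluster 9 stood at 327 CPM in WT (318 UMIs), 441 CPM (351 to 546) in rd10-vehicle (83 UMIs) and 403 CPM (309 to 517) in rd10-TMB (62 UMIs). Its log2 ratio was 0.44 (0.06 to 0.78) and 0.32 (-0.12 to 0.70) over WT, so that the interval of the second spans no difference. Slc6a9 UMIs per Slc32a1 UMI numbered 2.07 (1.81 to 2.38) in WT, 3.04 (2.36 to 3.94) in rd10-vehicle and 3.32 (2.49 to 4.49) in rd10-TMB. Gad2 in cluster 9 gave 75, 6 and 3 UMIs, or 77.2, 31.9 and 19.5 CPM, with log2 ratios of -1.07 (-2.77 to -0.09) and -1.59 (-4.29 to -0.38) over WT. Among genes with at least 50 UMIs over the libraries compared, 5.29% and 4.74% were at least 2-fold lower in these comparisons, and Gad2 was 1 of them in each. Gad1 gave 44 WT UMIs and 0 UMIs in both rd10 libraries, so that no Gad1 was read there in rd10. The WT level of 45.3 CPM (32.9 to 60.8) overlapped the 37.8 CPM (29.4 to 47.9) of WT rod-like cells, which should lack the gene, and with cells thinned to 1000 UMIs the shares with a Gad1 UMI were 3.33% and 3.14%. Per cell, WT cluster 9 held more, at 0.149 Gad1 UMIs (0.108 to 0.2) against 0.0576 (0.0447 to 0.0731), and 2 of its cells held 31.8% of them, with up to 7 in a cell against 2 in rod-like cells. Gad1 was also lower in rd10 rod-like cells, and the part of free RNA in the difference in cluster 9 was not tested.

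The make-up of cluster 9 moved as well. Ppp1r17, a gene of amacrine cells that carry neither GABA nor glycine genes, gave 408 UMIs in WT cluster 9, 1 in rd10-vehicle and 0 in rd10-TMB. Without the cells that held a Ppp1r17 UMI, again a choice made after the values were seen, the Slc6a9 log2 ratio over WT was 0.78 and 0.77. Against only those WT cells with a UMI of Xist but of no Y-linked gene, a stand-in for female cells, it was 0.52 in each rd10 library. The ratio thus kept its direction and was smaller under both choices. Amacrine markers did not all move one way: Prdm13 stood at 144, 186 and 182 CPM and Pax6 at 852, 1036 and 1151 CPM, and Tfap2b at 314, 26.6 and 58.5 CPM.

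Single cells of clusters 5 and 9 were sorted by whether they held a UMI of a Gad gene, of Slc6a9 or of both. Within a cluster the kinds were not apart at 1 UMI: in WT cluster 9, 49 cells with a Gad UMI also had Slc6a9 and 21 did not, and in WT cluster 5, 38 cells with Slc6a9 also had a Gad gene and 6 did not. In WT cluster 5, 351 of 461 cells (76.1%) had a UMI of Gad1 or Gad2 and none of Slc6a9, 8.24% had both kinds, 1.30% had Slc6a9 alone and 14.3% had neither. In WT cluster 9, 146 of 295 cells (49.5%) had Slc6a9 alone, 16.6% both, 7.12% a Gad gene alone and 26.8% neither. The shares of cells with Slc6a9 alone in cluster 9 were higher in rd10, at 51 of 62 cells (82.3%) in rd10-vehicle and 35 of 48 (72.9%) in rd10-TMB, and those with both were lower, at 6.45% and 4.17%. Median UMIs per cell in cluster 9 were 3302, 3341.5 and 2340.5 in WT, rd10-vehicle and rd10-TMB. With each cell thinned to 1000 UMIs the shares with Slc6a9 alone were 39.6%, 67.9% and 57.5%, and those with both 4.44%, 0 and 2.5%, on 12, 0 and 1 cells. With at least 2 UMIs of each kind required, the shares with both were 4.75%, 0 and 2.08%. Most of the WT cells with both thus held a single UMI of one kind, and a Gad1 UMI was also seen in 5.51% of WT rod-like cells, against under 1% in rd10. The part of that low reading in the lower shares with both was not tested.

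**Figure D3:**
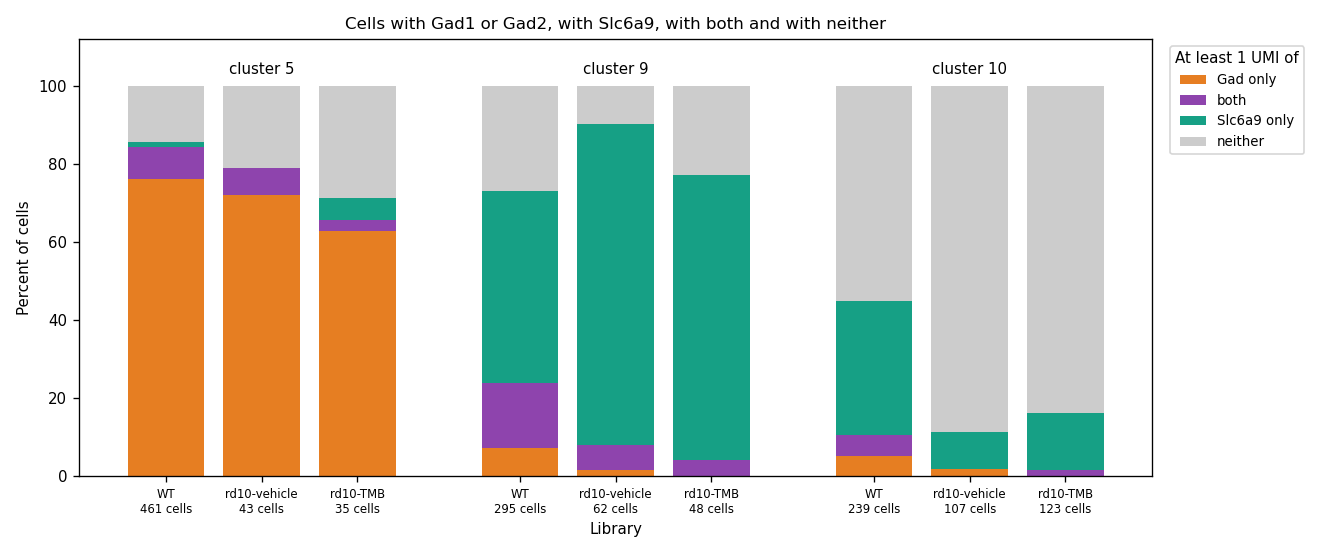
Percent of cells (stacked bars from 0) with a UMI of Gad1 or Gad2 alone, of Slc6a9 alone, of both or of neither, for each library of clusters 5, 9 and 10, with cell numbers below. Gad cells fill 76.1% of WT cluster 5 and Slc6a9 cells 49.5% of WT cluster 9, and cells with neither fill 55.2%, 88.8% and 83.7% of cluster 10.

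A stricter sorting of the cells of clusters 5 and 9, by at least 2 UMIs, shows what else went with each kind of gene. In WT, 301 cells had a Gad gene at that level and not Slc6a9 (Gad cells), 122 had Slc6a9 and not a Gad gene (Slc6a9 cells), 20 had both and 313 neither. The cells with neither had a median of 1731 UMIs against 5321 in Gad cells and 4239 in Slc6a9 cells. Slc32a1 stood at 431 CPM (401 to 463) in Gad cells, at 353 CPM (302 to 409) in Slc6a9 cells and at 350 CPM (306 to 397) in cells with neither. The first pair of intervals overlapped, and Gad cells lay above cells with neither. In rd10-vehicle there were 26 Gad cells, 48 Slc6a9 cells and none with both, and in rd10-TMB 21, 31 and 1. Slc32a1 there stood at 360 and 454 CPM in Gad and Slc6a9 cells of rd10-vehicle and at 346 and 435 CPM in those of rd10-TMB. In rd10 cells with neither it stood higher, at 542 CPM (351 to 800) and 506 CPM (300 to 800), with intervals that overlap those of the other sets.

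Genes that the sorting did not use are given for the same sets. In WT, 294 of the 301 Gad cells lay in cluster 5 and 121 of the 122 Slc6a9 cells in cluster 9. The sorting was thus close to the split between these clusters, which were made from the same cells and genes. The values describe that split and are no separate evidence for it. Slc6a11, a GABA carrier of the plasma membrane, stood at 217 CPM in WT Gad cells and at 0 UMIs in WT Slc6a9 cells. C1ql1 stood at 963 and 56.8 CPM and the transcription factor gene Meis2 at 917 and 42.6 CPM. The other way, Tcf4 stood at 111 CPM in Gad cells and 1345 CPM in Slc6a9 cells, and Gabrg3, a GABA-A receptor subunit gene, at 27.2 and 144 CPM. Pax6, a factor of all amacrine cells, was level at 876 and 852 CPM.

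The same genes are given for the rd10 libraries, in fewer cells. In rd10-vehicle 25 of the 26 Gad cells lay in cluster 5 and all 48 Slc6a9 cells in cluster 9. In rd10-TMB all 21 Gad cells and all 31 Slc6a9 cells lay in those clusters. In rd10-vehicle, Meis2 stood at 1111 CPM in Gad cells and 6.05 CPM in Slc6a9 cells, C1ql1 at 1643 and 6.05 CPM, and Slc6a11 at 188 CPM and 0 UMIs. Tcf4 there stood at 93.9 and 1131 CPM, Gabrg3 at 78.2 and 278 CPM and Pax6 at 962 and 1076 CPM. In rd10-TMB, Meis2 stood at 1074 and 15.3 CPM, C1ql1 at 1159 CPM and 0 UMIs, and Slc6a11 at 66.7 and 7.64 CPM. Tcf4 there stood at 84.9 and 978 CPM, Gabrg3 at 54.6 and 260 CPM and Pax6 at 1037 and 1184 CPM. Each of these genes but Pax6 was higher in the kind of cell in which it was higher in WT, and the Slc6a11 intervals of rd10-TMB overlapped.

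In cluster 10 both carriers were lower in the rd10 libraries than in WT, and rd10-TMB lay between the other libraries. Slc6a9 stood at 548 CPM in WT (720 UMIs), 102 CPM (71.9 to 141) in rd10-vehicle (37 UMIs) and 263 CPM (221 to 311) in rd10-TMB (138 UMIs), with no overlap of the intervals. Slc32a1 stood at 167 CPM in WT (219 UMIs), 24.9 CPM (11.4 to 47.2) in rd10-vehicle (9 UMIs) and 74.4 CPM (52.9 to 102) in rd10-TMB (39 UMIs), again apart. The log2 ratios of Slc6a9 were -2.39 (-2.94 to -1.95) for rd10-vehicle over WT, -1.05 (-1.33 to -0.79) for rd10-TMB over WT and 1.34 (0.83 to 1.93) for rd10-TMB over rd10-vehicle. Those of Slc32a1 were -2.60 (-3.89 to -1.79), -1.13 (-1.69 to -0.67) and 1.47 (0.51 to 2.81). Without the 5% of cells with the most UMIs, the rd10-vehicle over WT ratio of Slc6a9 moved to -3.85 and that of Slc32a1 to -4.65, and those of rd10-TMB over rd10-vehicle to 2.61 and 3.37. With WT limited to its female-like cells, by the same stand-in as in cluster 9, the rd10-TMB over WT ratios were -0.57 for both genes, no longer 2-fold, and that of Slc6a9 was -0.63 with cells thinned to 1000 UMIs. With all WT cells, both genes were at least 2-fold lower in each rd10 library, as were 4.9% of genes in rd10-vehicle and 2.52% in rd10-TMB. For rd10-TMB over rd10-vehicle Slc6a9 was at least 2-fold higher, as were 1.11% of 3338 genes, and Slc32a1 had fewer than 50 UMIs and was not counted.

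These levels had the same order over the libraries as the share of cluster 10 cells with a Tfap2b UMI. Tfap2b, a transcription factor gene of amacrine cells, had a UMI in 95 of 239 cells in WT (39.7%), 10 of 107 in rd10-vehicle (9.35%) and 20 of 123 in rd10-TMB (16.3%). Those cells held 717 of 720, 35 of 37 and 138 of 138 Slc6a9 UMIs of the cluster, and 215 of 219, 8 of 9 and 39 of 39 Slc32a1 UMIs. Almost all of the reading of both carriers in cluster 10 thus came from cells with Tfap2b, and in the cells without it Slc6a9 gave 3 (WT), 2 (rd10-vehicle) and 0 (rd10-TMB) UMIs. Tfap2b itself was lower in rd10 cluster 5, at 793, 113 and 21.9 CPM, where Pax6 and Meis2 were not lower. Fewer amacrine cells and less Tfap2b per cell thus cannot be told apart by this gene.

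Within the cells with Tfap2b, a choice made after the values were seen, Slc6a9 stood at 1031 CPM (957 to 1110) in WT, 696 CPM (484 to 967) in rd10-vehicle and 1036 CPM (871 to 1225) in rd10-TMB. WT and rd10-TMB were level there, and the log2 ratio of rd10-TMB over WT turned from -1.05 to 0.016. Slc32a1 stood at 309 CPM (269 to 353), 159 CPM (68.6 to 313) and 293 CPM (208 to 400), with log2 ratios over WT of -0.80 and -0.049. The rd10-vehicle values rest on 10 cells. Median UMIs of the cells with Tfap2b were 7345, 4609 and 6588.5, and the part of depth in whether a cell had a Tfap2b UMI was not tested.

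**Figure D4:**
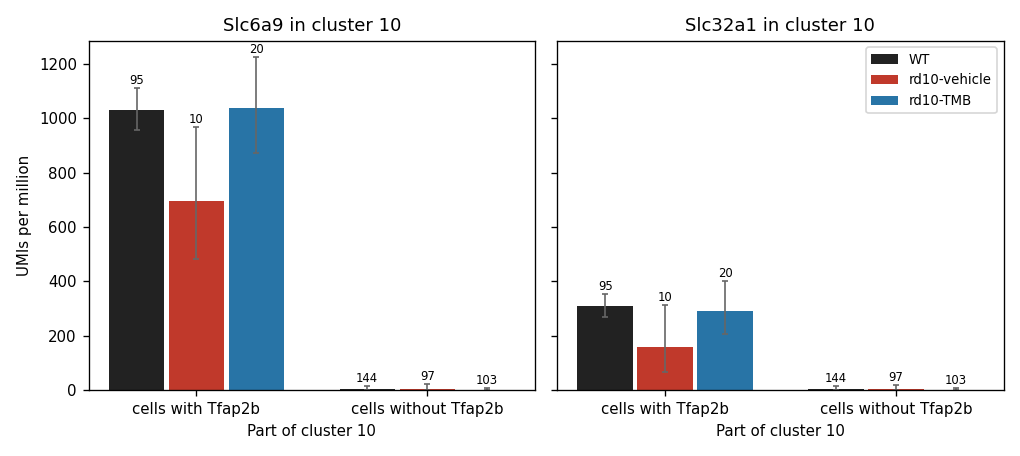
Levels of Slc6a9 and Slc32a1 in cluster 10 for cells with and without a Tfap2b UMI, in CPM with exact 95% counting intervals. Cells with Tfap2b lie at 1031, 696 and 1036 CPM for Slc6a9 in WT, rd10-vehicle and rd10-TMB, and cells without it at 4.84, 6.41 and 0 CPM.

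The cells of cluster 10 with at least 2 Slc6a9 UMIs differed in other genes from those without. WT had 86 such cells, rd10-vehicle 7 and rd10-TMB 20. A further 4 WT cells also had a Gad gene. In WT they held Tfap2b at 1322 CPM, Pax6 at 535 CPM, the gap junction gene Gjd2 at 696 CPM and Car2 at 3394 CPM, and the bipolar genes Trpm1 at 9.39 CPM, Scgn at 3.13 CPM and Grm6 at 1.56 CPM. The 149 WT cells with neither kind of gene held Trpm1 at 2185 CPM, Scgn at 1613 CPM and Grm6 at 898 CPM, and Tfap2b at 14 CPM. Cluster 10 thus joined cells with amacrine transcripts and cells with bipolar transcripts, with Slc6a9 and Slc32a1 in the former. In rd10-TMB the 20 cells held Tfap2b at 1412 CPM and Trpm1 at 7.51 CPM, and the 103 cells with neither held 0 Tfap2b UMIs and Trpm1 at 2460 CPM.

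A like division was seen in cluster 6, which carried 4 amacrine and 4 rod bipolar markers and had no name. Gad1 stood there at 456 CPM (413 to 503) in WT, from 409 UMIs in 44 of 177 cells, at 27.6 CPM (16.6 to 43.2) in rd10-vehicle, from 19 UMIs in 2 of 180 cells, and at 21.6 CPM (12.1 to 35.6) in rd10-TMB, from 15 UMIs in 2 of 152 cells. Few cells thus held all of the rd10 Gad1 UMIs, and those that did held about as many each as in WT, 9.5 and 7.5 against a mean of 9.30. In WT the 37 cells with at least 2 Gad UMIs held Slc32a1 at 476 CPM, C1ql1 at 2538 CPM and Tfap2b at 3232 CPM, and the other 140 held 9.25, 9.25 and 15.4 CPM. The Gad1 UMIs of WT cluster 6 outnumbered those of Gad2 by 8.02 (5.98 to 11), against 1.87 in cluster 5. Cluster 6 held 16% of all WT Gad1 UMIs.

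Elsewhere, 2 small clusters carried the members above the level of other cells. In WT the ganglion-like cluster 16 gave 115 Gad1 UMIs in 9 of 37 cells and 31 Slc32a1 UMIs in 10 cells, with 8 Gad2 UMIs. The rd10 libraries had 3 cells each in that cluster and none of these UMIs. In the horizontal-like cluster 19, Slc32a1 gave 52 UMIs in 12 of 18 WT cells, while Gad1 gave 2 UMIs there and Gad2 and Slc6a9 gave 0. The vesicular carrier was thus read in WT horizontal-like cells with almost no reading of either decarboxylase. In rd10-TMB it gave 4 UMIs in 3 of 6 cells of that cluster and in rd10-vehicle 0 UMIs in 4 cells.

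Slc6a9 was also read in non-neuronal cells. In the pigment epithelium-like cluster 15 it gave 11 UMIs in 5 of 13 WT cells, 18 in 14 of 35 rd10-vehicle cells, or 129 CPM (76.4 to 204), and 11 in 8 of 16 rd10-TMB cells. Cluster 18, which had no name and was led by extracellular matrix genes such as Fbln1 and Optc, held 50 Slc6a9 UMIs in 17 of 23 rd10-vehicle cells, or 156 CPM (115 to 205). In the astrocyte-like cluster 12 it stood at 24.7, 22.7 and 24.9 CPM in WT, rd10-vehicle and rd10-TMB, level within wide intervals.

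In the other retinal cell types Gad1 was read in a low share of cells, lower in rd10 rod-like cells than in WT. A Gad1 UMI was seen in 65 of 1180 WT rod-like cells (5.51%, median depth 1423 UMIs), in 4.91% of Müller glia-like cells (6300), 4.20% of rod bipolar-like cells (5032) and 4.68% of cone-like cells (5333), cells that should lack the gene. In rd10 rod-like cells the shares were 3 of 556 (0.540%) and 1 of 746 (0.134%), at median depths of 1406 and 1536 UMIs. Against this stood 359 of 461 WT cluster 5 cells, or 77.9%, at a median depth of 2662 UMIs. With cells thinned to 1000 UMIs the WT shares were 51.0% in cluster 5, 3.14% (2.13 to 4.46) in rod-like and 0.759% (0.207 to 1.93) in Müller glia-like cells, and the levels of the latter types were 37.8 and 8.13 CPM, so that at equal depth these types were not alike. Free RNA in droplets is known to give a low share in cells that lack a gene, and its part here was not tested. The 7.95% (4.85 to 12.1) of WT cluster 10 cells with a Gad1 UMI overlapped the rod-like share, so that no expression in cluster 10 is read from it, although the cells with Tfap2b held up to 3 Gad1 UMIs and those without no more than 1.

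Gad1 UMIs per Gad2 UMI numbered 2.43 (1.54 to 3.92) in WT rod-like cells and 1.80 (0.924 to 3.64) in WT Müller glia-like cells, both intervals holding the 1.87 of cluster 5 and neither the 8.02 of cluster 6. In WT rod bipolar-like cells the ratio was 4.25 (1.39 to 17.4) and in WT cone-like cells 4 (1.29 to 16.4), wide intervals that hold both values. The whole WT library held 2563 Gad1 and 1185 Gad2 UMIs, and the source of the low reading in these cell types was not tested. In rd10-vehicle Müller glia-like cells the ratio was 0.714 (0.284 to 1.73), which holds the 0.888 of cluster 5 in that library, and in rd10-TMB 0.375 (0.12 to 1.0), from 6 and 16 UMIs, which overlaps the interval of 0.896 to 1.54 around the 1.17 of its own cluster 5. Subtracting the rod-like level of the same library left each member ratio of clusters 5, 9 and 10 that could be followed within its counting interval. Only ratios with at least 9 UMIs in each library were followed. Gad1 and Gad2 in clusters 9 and 10 and Slc6a9 in cluster 5 had fewer in rd10, so the subtraction says nothing of them.

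Slc6a9 is given for the same cell types. Over clusters 0 to 4, 7, 8 and 11 together it stood at 7.94 CPM (6.43 to 9.70) in WT, 2.96 CPM (2.40 to 3.61) in rd10-vehicle and 3.89 CPM (3.17 to 4.72) in rd10-TMB, lower in both rd10 libraries. The make-up of this pool differed between libraries. Müller glia-like cells were 530 of its 3189 cells in WT, 2492 of 5303 in rd10-vehicle and 1748 of 4319 in rd10-TMB. Rod-like cells numbered 1180, 556 and 746. In WT, Slc6a9 stood at 3.31 CPM in Müller glia-like and 21.7 CPM in rod-like cells. The part of make-up in the pooled difference was not tested. In Müller glia-like cells its log2 ratio was -1.28 (-2.23 to -0.06) for rd10-vehicle over WT and -0.88 (-1.82 to 0.34) for rd10-TMB over WT. In rod-like cells the ratios over WT were -0.45 (-1.55 to 0.41) for rd10-vehicle and -0.49 (-1.40 to 0.30) for rd10-TMB. In cone-like cells they were 0.50 (-0.43 to 1.66) and 0.50 (-0.47 to 1.68), of the other sign. The intervals of both types span no difference, as do those of rod bipolar-like, ON cone bipolar-like and endothelial-like cells. Whether these ratios differ between cell types was not tested. Its shares in rod-like cells, 3.05% (WT), 2.34% (rd10-vehicle) and 2.55% (rd10-TMB), had overlapping intervals. In cone-like cells it was 10 of 278 (3.60%, 1.74 to 6.52) in WT, 30 of 542 (5.54%, 3.77 to 7.81) in rd10-vehicle and 26 of 412 (6.31%, 4.16 to 9.11) in rd10-TMB. In rod bipolar-like cells of the rd10 libraries the share was lower, at 3 of 729 (0.412%, 0.0849 to 1.2) and 7 of 647 (1.08%, 0.436 to 2.22). Median depths were 4857 and 5548.5 UMIs in the cone-like and 3638 and 4310 UMIs in the rod bipolar-like cells. The shares of the 2 types did not overlap in either rd10 library. Thinned to 1000 UMIs they were 0.565% against 0 in rd10-vehicle and 1.76% against 0.315% in rd10-TMB, and the thinned intervals overlapped, so that the gap was not detectable at that depth.

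**Figure D5:**
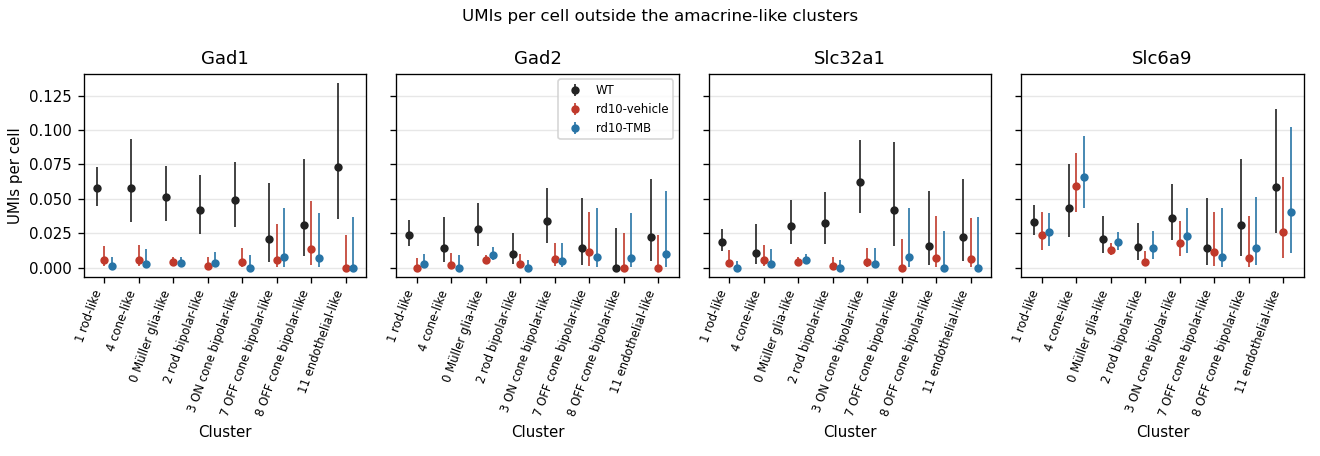
UMIs per cell of each gene in 8 clusters other than 5, 9 and 10, by library, with exact 95% counting intervals. WT lies above rd10 for Gad1 in rod-like, cone-like and Müller glia-like cells, while Slc6a9 in cone-like cells stands at 0.0432, 0.0590 and 0.0655 UMIs per cell in WT, rd10-vehicle and rd10-TMB.

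The other genes described in clusters 5, 9 and 10 were 76 listed genes in the matrix, 49 of inhibitory transmission (carriers, enzymes, receptors) and 27 that mark amacrine subtypes. In cluster 5, 12 of 39 with at least 50 UMIs were at least 2-fold different in rd10-vehicle from WT, against 12.5% of all genes. Of them 5 were higher and 7 lower, against 5.25% and 7.25%, with a list median of 0.09 on the log2 scale and 0.08 over all genes. For rd10-TMB over WT these were 11 of 41, against 10.1%, of which 2 were higher and 9 lower, against 3.93% and 6.18%, with medians of -0.12 and 0.12. Between the rd10 libraries none of 12 passed, against 1.64% of genes. In cluster 9 the counts were 8 of 34 and 8 of 33 over WT, against 7.54% and 7.55%, and none of 12 between the rd10 libraries, against 1.1%. In each comparison with WT, 2 were higher, against 2.25% and 2.81%, and 6 lower, against 5.29% and 4.74%. In cluster 10 they were 9 of 35 and 7 of 36 over WT, against 8.15% and 3.4%, and 1 of 25 between the rd10 libraries, against 1.71%. In rd10-vehicle 1 was higher, against 3.25%, and 8 lower, against 4.9%, and in rd10-TMB 2 were higher, against 0.88%, and 5 lower, against 2.52%. The subtype genes made up much of these counts. For rd10-vehicle and rd10-TMB over WT, the transmission genes alone gave 8 of 31 and 4 of 33 in cluster 5, 4 of 24 and 4 of 23 in cluster 9 and 5 of 27 and 4 of 28 in cluster 10. The subtype genes gave 4 of 8 and 7 of 8, 4 of 10 in both, and 4 of 8 and 3 of 8. With 4 of 33 against 10.1% of all genes, the transmission genes of cluster 5 in rd10-TMB were near the share over all genes.

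Among the plasma membrane carriers, Slc6a11 in cluster 5 stood at 228 (WT), 212 (rd10-vehicle) and 93.2 (rd10-TMB) CPM, lower in rd10-TMB. The neuronal glycine carrier Slc6a5, which refills glycinergic terminals, was seen mostly in cluster 10, at 70.7, 11 and 30.5 CPM. Its order over the libraries was that of Slc6a9 and Slc32a1 in the same cluster. Slc6a6, the taurine carrier, stood at 253, 297 and 494 CPM in cluster 9, highest in rd10-TMB.

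Of the receptor subunits, Gabrg3 was higher over WT in cluster 9 and lower in cluster 10, as Slc6a9 was, and higher in cluster 5, where Slc6a9 had too few UMIs to compare. It stood at 107, 271 and 247 CPM in cluster 9, with log2 ratios of 1.35 (0.83 to 1.84) and 1.23 (0.63 to 1.76) over WT, and at 121, 22.1 and 64.9 CPM in cluster 10, with -2.29 and -0.87. In cluster 5 it stood at 25.7, 79.5 and 60.3 CPM, with log2 ratios of 1.72 and 1.33 over WT. Gabrd, a subunit of GABA-A receptors outside synapses, stood at 49.0, 159 and 82.3 CPM in cluster 5. Gabrb1 gave 110, 0 and 3 UMIs in cluster 5, and the glycine receptor gene Glra3 gave 99, 0 and 1 UMIs in cluster 9 while standing at 140, 252 and 203 CPM in cluster 5.

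The GABA transaminase gene Abat, whose enzyme breaks GABA down, stood at 112, 119 and 148 CPM in cluster 5, within counting error of WT. Phgdh and Psph, enzymes on the way to serine and so to glycine, stood at 21.9, 72.9 and 27.4 CPM and at 29.0, 66.2 and 43.9 CPM there, each at least 2-fold higher in rd10-vehicle than in WT. Slc12a5, the chloride exporter on which inhibition by GABA and glycine rests, stood at 630, 742 and 631 CPM in cluster 5 and 326, 244 and 416 CPM in cluster 9, where its rd10 libraries differed by 0.76 (0.20 to 1.35) on the log2 scale. Of the subtype genes, Tfap2c stood at 90.6, 281 and 280 CPM in cluster 9, and Neurod2 at 148, 42.5 and 13 CPM. In cluster 10 Neurod2 stood at 191, 30.4 and 76.3 CPM and Dab1 at 170, 30.4 and 68.7 CPM, in the order of Slc6a9.

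Likeness of pattern was measured by Pearson's r of log2(CPM + 10) over 35 units, each a cluster of 1 library with at least 50 cells, among 13331 genes. The units share libraries and depth, and cluster 5 of both rd10 libraries and cluster 9 of rd10-TMB were too small to enter. Among the members, Gad1 and Gad2 had an r of 0.87, Gad2 and Slc32a1 0.84, Slc32a1 and Slc6a9 0.77, Gad1 and Slc32a1 0.63, Gad2 and Slc6a9 0.42, and Gad1 and Slc6a9 0.08. The vesicular carrier thus stood between the GABA enzymes and the glycine carrier. Most like Gad1 were C1ql2 (0.97), Caln1 (0.91), Ripor2 (0.89), Pou3f3 (0.88) and Syt7 (0.87), and most like Gad2 were Vgf (0.95), Adgra1 (0.93), Gabra2 (0.93), Ank1 (0.92) and Syt5 (0.92). Most like Slc32a1 were Cacng3 (0.98), Elavl3 (0.98), Necab1 (0.97), Gm14204 (0.97) and Elavl4 (0.97), and most like Slc6a9 were Gabrg3 (0.95), Lamp5 (0.93), Traip (0.90), Calb2 (0.90) and Calb1 (0.89).

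Some of these genes were unlike their partner in clusters the units left out. C1ql2 stood at 420, 417 and 411 CPM in cluster 5 of WT, rd10-vehicle and rd10-TMB, level where Gad1 was lower in rd10, and Vgf at 133, 19.9 and 5.48 CPM, lower where Gad2 was not. Gm14204, the neighbour of Slc32a1, stood at 85.1, 39.7 and 93.2 CPM in cluster 5, 63.8, 69.0 and 111 CPM in cluster 9 and 65.4, 13.8 and 28.6 CPM in cluster 10. In cluster 10 its order over the libraries was that of Slc32a1.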

How the data were processed

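Dissociated retinal cells were captured with 10x v3 chemistry. The authors aligned reads to mm10 with Cell Ranger 6.0.1, joined the matrices in Cumulus, dropped Scrublet doublets, kept cells with at least 500 genes in Seurat 3.2.2 and clustered after Harmony. Values in the deposited matrix are on a natural log scale, as ln(1 + UMIs per 10000). The deposited cell table gives each cell's total UMI count, library and cluster. All 32620606 entries came out as whole UMIs within 0.001, and for all 15242 cells their sum was the deposited total. No further filter or doublet caller was applied.

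UMIs were summed per cluster and library and scaled to CPM. Intervals are exact at 95% (Poisson for levels, Clopper-Pearson for shares, conditional for ratios), with 1 UMI added in log2 ratios and 3 counts as the limit for 0. No p-value was computed, since each group has 1 library. Listed genes needed 50 UMIs over the libraries compared. Clusters were named from listed markers, counted at 20 CPM or more and at least 2-fold over the rest. Names may differ from those of the study. Genes were named by this rule: the 4 members, the 5 genes most like each among those with at least 200 UMIs, and listed genes with at least 50 UMIs, with those past 2-fold first. Genes used to describe cell sets were picked from the lists after their values were seen. The members and lists were chosen with earlier results of these data known. Genome sequence came from RefSeq promoter windows, matched by symbol for Gad1, Gad2 and Slc32a1, and gene positions from GENCODE. Python 3.11.15, NumPy 2.4.6, pandas 2.3.3, SciPy 1.17.1 and matplotlib 3.10.9 were used, and the scripts were tested on simulated counts. Alternatives changed scaling, pseudocount, cell filters, thinning, sex of WT cells, free RNA, count minimum and fold limit.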

Additional observations from a re-analysis of the deposited data

Results flagged for a closer look

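Gad2 moved in opposite directions between clusters under the same comparison. Over WT its log2 ratios in cluster 5 were 0.38 (rd10-vehicle) and 0.33 (rd10-TMB), against -1.07 and -1.59 in cluster 9 and -2.51 and -3.33 in cluster 6. The rd10 values of clusters 9 and 6 rest on 6 or fewer UMIs each. With 1 library per group the difference between clusters was not tested.

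Slc6a9 was higher over WT in cluster 9, by 0.98 (rd10-vehicle) and 0.99 (rd10-TMB) on the log2 scale, and lower in cluster 10, at -2.39 and -1.05. The share of cells with a Tfap2b UMI in cluster 10 and the Ppp1r17 UMIs in cluster 9 differed between the same libraries. This difference between clusters was not tested either.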

How the results depend on the processing

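No paired analysis was possible because each group had 1 library, and leaving out a replicate was not run for the same reason. Of 224 member ratios recomputed under the alternatives, 203 stayed within the counting interval and 20 moved outside it, and 1 ratio whose interval had left out 0 turned its direction. Ratios whose interval spanned 0 were not counted as turned, although some changed sign, among them Slc32a1 in cluster 5 over WT and in cluster 9 between the rd10 libraries. Median-of-ratios scaling, totals without mitochondrial and ribosomal protein genes, subtraction of the rod-like level, cells with at least 1000 genes, a mitochondrial share of 10% or less and a 0.1 UMI pseudocount moved none of the 21 ratios followed in each. Only ratios with at least 9 UMIs in each library were followed, which left out Gad1 and Gad2 in clusters 9 and 10. Where a ratio moved, the cause was not tested. Clusters 5 and 9 held few rd10 cells, which limits the rd10 values there.

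As the mean over cells, the log2 ratio of Slc32a1 in cluster 5 was 0.49 for rd10-vehicle and 0.43 for rd10-TMB over WT, and that of Slc6a9 in cluster 9 between the rd10 libraries was -0.31. Thinned to 1000 UMIs, Gad2 in cluster 5 was 0.79 (rd10-TMB over WT), Slc32a1 0.44 in cluster 5 (rd10-vehicle over WT) and 0.41 in cluster 9 (between the rd10 libraries), and Slc6a9 in cluster 10 was -0.63 (rd10-TMB over WT). Against WT cells that held Xist but no Y-linked gene, Slc6a9 was 0.52 and 0.52 in cluster 9 and -1.90 and -0.57 in cluster 10, and Slc32a1 in cluster 10 was -0.57 in rd10-TMB. Without the 5% of cells with the most UMIs, Slc6a9 in cluster 10 was -3.85 for rd10-vehicle over WT and 2.61 for rd10-TMB over rd10-vehicle, and Slc32a1 was -4.65 and 3.37. In that setting 1 Slc32a1 UMI and 10 Slc6a9 UMIs remained in rd10-vehicle. Among cluster 10 cells with Tfap2b, an alternative added after seeing the data, Slc6a9 was -0.53, 0.016 (turned) and 0.55 in the order rd10-vehicle over WT, rd10-TMB over WT and between the rd10 libraries, and Slc32a1 was -0.80 and -0.049 over WT.

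Counted as cells with a UMI, the share in clusters 5, 9 and 10 was 65.4%, 53.7% and 60.5% for Gad1 in WT, rd10-vehicle and rd10-TMB, 77.2%, 60.7% and 50% for Gad2, 79.8%, 77.9% and 79.3% for Slc32a1 and 75.2%, 31.1% and 32.4% for Slc6a9. The UMI share was 76.1% for Gad1 in rd10-vehicle without the deepest cells and 93.2% for Slc6a9 in WT cells with at least 1000 genes. With 2 UMIs as the limit, 63.8% of WT cluster 5 cells had a Gad gene only and 41.0% of WT cluster 9 cells Slc6a9 only. Thinned, Gad-only cells were 61.2% and 53.8% of cluster 5 in WT and rd10-vehicle, and Slc6a9-only cells 39.6%, 67.9% and 57.5% of cluster 9 and 25.5% and 3.81% of cluster 10 in WT and rd10-vehicle.

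For listed genes past the fold limit, a minimum of 20 UMIs gave 19 and 17 over WT and 2 between the rd10 libraries in cluster 5, 15 for rd10-TMB over WT in cluster 9 and 5 between the rd10 libraries in cluster 10. A minimum of 200 UMIs gave 3 and 6 over WT in cluster 5, 1 and 1 in cluster 9, and 3, 3 and 0 in cluster 10. A 1.5-fold limit gave 18 for rd10-TMB over WT and 2 between the rd10 libraries in cluster 5, 13, 16 and 3 in cluster 9, and 24, 13 and 5 in cluster 10. Of the 5 genes most like a member, log2(CPM + 1) shared 3 for Gad1, 1 for Gad2 and 3 for Slc6a9, and units with at least 20 cells shared 2, 0 and 2.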
